A study of Mus musculus with 15 samples.

Results

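The genes that make, aid or remove reactive oxygen and nitric oxide in macrophages were followed in RAW 264.7 cells, a mouse macrophage line, after saturation with silica nanoparticles. The 9 genes were picked by name from the 57186 genes of the count table, with earlier results of these data known but by no cutoff on a measured value, and all 9 passed the filter of at least 10 counts summed over the libraries. They are the oxidase genes Cybb, Cyba, Ncf1 and Ncf4, the proton channel gene Hvcn1, the nitric oxide synthase gene Nos2, the superoxide dismutase genes Sod1 and Sod2, and the catalase gene Cat. Cells were exposed for 6 h to SNP100 at 50 µg/mL or SNP50 at 25 µg/mL, which are nonporous particles of nominally 100 and 50 nm, to MSNP or HMSNP at 200 µg/mL, which are mesoporous and hollow mesoporous particles of nominally 100 nm, or were left nontreated as the Control. Each of the 5 groups had 3 libraries of poly(A) RNA, and all groups shared the cell line, the RPMI medium with serum and the harvest time. Particle type and dose changed together between most groups, and every group carries its own library number prefix, so that particle, dose and whatever the prefix stands for cannot be told apart, although MSNP and HMSNP shared the dose. The labels do not say whether replicates came from separate cultures, and p-values therefore measure the spread between these libraries, which may be technical.

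The phagocyte NADPH oxidase moves electrons from NADPH across the phagosome or plasma membrane onto oxygen and so forms superoxide. Its membrane core is a pair of proteins encoded by Cybb and Cyba, and cytosolic subunits, among them those encoded by Ncf1 and Ncf4, join the core together with a Rac GTPase when the cell is activated. Hvcn1 encodes the voltage-gated proton channel that carries protons in the same direction and keeps the charge balanced while the oxidase runs. Nos2 encodes the inducible nitric oxide synthase, which makes nitric oxide from arginine and is a standard marker of activated mouse macrophages. Sod1 in the cytosol and Sod2 in mitochondria turn superoxide into hydrogen peroxide, which catalase breaks down in peroxisomes.

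Total counts on genes lay between 29369934 and 42617812 per library, and levels are given in CPM, the counts scaled to a common library size. Of the 10 macrophage markers, all were detected, and their summed level was 13486 to 14446 CPM in the MSNP-treated group, below the 15861 to 20480 CPM of the other 12 libraries. Most of that sum came from Lyz2, at 8928 to 15072 CPM over the libraries, while Mrc1 had 11 to 68 counts. Against Control, 5 of the 10 were lower and 2 higher with MSNP, and their part in the MSNP results was not tested. The 8 neutrophil markers summed to 1.49 to 3.36 CPM, mostly from S100a8, which was at 1.36 to 3.20 CPM (47 to 123 counts). Ly6g, Camp and S100a9 had 0 counts in every library, and Mpo, Elane, Ltf and Prtn3 had at most 7. The T cell, B cell, epithelial and fibroblast lists summed to at most 0.397 CPM in any library. The T cell list was highest with MSNP, at 0.324 to 0.397 CPM against at most 0.0917 CPM elsewhere, and came from Cd4, with at most 12 counts. In bulk RNA, fewer cells of a kind and less RNA per cell cannot be told apart. Control replicate 3 stood apart from the other controls. Its level divided by their mean was 1.85 for Cyba, 1.76 for Sod1, 1.25 for Sod2 and 1.22 for Ncf4, but 0.565 for Cybb and 0.763 for Cat, while Ncf1 (0.942), Nos2 (0.831) and Hvcn1 (1.02) lay closer to them. Differences of the 9 genes from Control are therefore given with and without that library where it decides the call.

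With MSNP 5 of the 9 genes differed from Control, Hvcn1, Nos2 and Cat being higher and Ncf1 and Sod1 lower, by edgeR's quasi-likelihood test at a Benjamini-Hochberg adjusted p under 0.05. With SNP100 and with SNP50 only Hvcn1 was called, higher, and with HMSNP only Nos2, lower. Among all 19839 genes tested, 22.8% were called with MSNP (11.8% higher and 11% lower), 0.912% with SNP100 (0.509% higher and 0.403% lower), 1.41% with SNP50 (0.454% higher and 0.958% lower) and 5.16% with HMSNP (2.46% higher and 2.7% lower). The 4 comparisons share the same 3 control libraries. Without Control replicate 3 the number of the 9 genes called was 3 with SNP100, 7 with either SNP50 or MSNP and 2 with HMSNP, while the share of all genes called was 5.16%, 18.9%, 29.5% and 8.66%. When each comparison was fitted on its own 6 libraries, 3 genes were called with MSNP (Hvcn1, Nos2 and Ncf1) and 0 in each of the other 3 groups, where 1 of the 9 genes per group had an unadjusted p under 0.05. Over all genes those fits called 2257 with MSNP, 0 with SNP100, 1 with SNP50 and 77 with HMSNP. DESeq2 on all libraries called 1, 1, 5 and 2 of the 9 genes in SNP100, SNP50, MSNP and HMSNP. It called 496, 680, 4969 and 1945 of all genes in the same order.

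**Figure D1:**
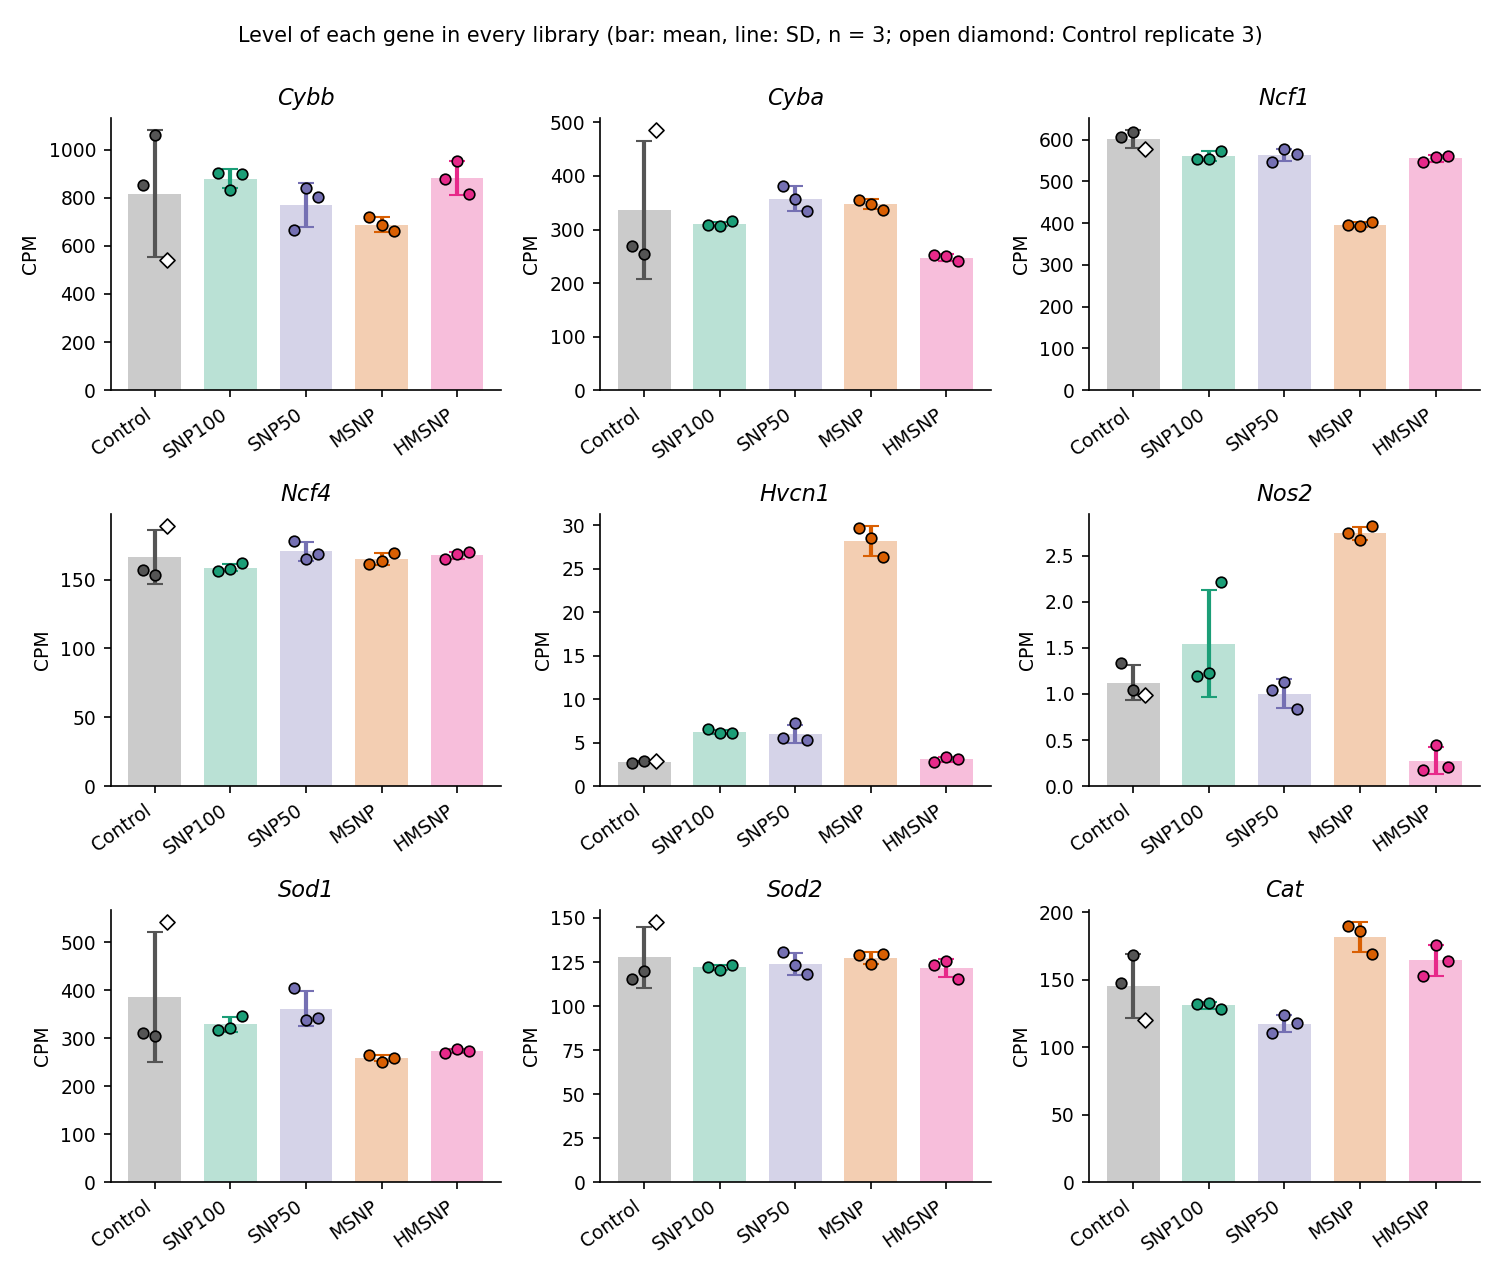
Level of each of the 9 genes in CPM in every library, by group, with bars for the group mean, lines for the SD (n = 3) and an open diamond for Control replicate 3. Hvcn1 and Nos2 show the widest separation of groups, with MSNP at 26.3 to 29.6 CPM for Hvcn1 against 2.71 to 2.84 CPM in Control, while Cyba and Sod1 are spread mainly by Control replicate 3.

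The membrane core of the oxidase did not pass the test against Control with any particle. Cybb, the catalytic subunit (ENSMUSG00000015340, chrX:9301491-9354010 of GRCm39 on the minus strand), was at 851, 1061 and 539.8 CPM in the 3 controls and at 719.6, 686 and 660.4 CPM with MSNP. It was at 903, 834 and 900.4 CPM with SNP100, at 667, 841 and 803 CPM with SNP50, and at 876, 954 and 815 CPM with HMSNP. The controls spanned every treated library, and the log2 fold change of Cybb was 0.10 ± 0.17 (SE) for SNP100 (edgeR adjusted p = 0.85), -0.09 ± 0.17 for SNP50 (0.91), -0.25 ± 0.17 for MSNP (0.33) and 0.11 ± 0.17 for HMSNP (0.73). Without Control replicate 3 the MSNP value was -0.47 (adjusted p = 0.001) and the SNP50 value -0.32 (adjusted p = 0.029), both called. Among treated groups, all 3 MSNP libraries lay below all SNP100 and all HMSNP libraries. The log2 difference of HMSNP from MSNP was 0.36 ± 0.17 (adjusted p = 0.18), and 0.37 (adjusted p = 9.7e-05) when only those 6 libraries were fitted.

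Cyba (ENSMUSG00000006519, chr8:123150422-123159706 of GRCm39 on the minus strand), the partner that stabilizes the catalytic subunit in the membrane, was at 269.8, 254 and 485 CPM in the controls. The 3 HMSNP libraries, at 253, 249.8 and 241 CPM, were the lowest of all 15. Cyba was at 356, 347 and 337 CPM with MSNP, at 382, 357 and 335 CPM with SNP50 and at 309, 307 and 315 CPM with SNP100. Every HMSNP library lay below every MSNP library. The log2 difference of HMSNP from MSNP was -0.49 ± 0.17 (edgeR adjusted p = 0.061), and it was called when any 1 of the controls was left out, with only the 6 libraries (adjusted p = 3.6e-07) and by DESeq2 (adjusted p = 0.026). Against Control the call of Cyba depended on which control libraries were used, and in SNP100 its direction did too. The log2 fold change in SNP100 was -0.12 ± 0.17 (adjusted p = 0.83) with all controls and 0.24 (adjusted p = 0.01) without Control replicate 3. In SNP50 it went from 0.09 ± 0.17 (adjusted p = 0.91) to 0.44 (adjusted p = 4e-05) and in MSNP from 0.04 ± 0.17 (adjusted p = 0.88) to 0.41 (adjusted p = 4.5e-06), both called without that library. In HMSNP it went from -0.44 ± 0.17 (adjusted p = 0.14) to -0.08 (adjusted p = 0.41), and was called without Control replicate 2 (-0.59, adjusted p = 0.016).

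Ncf1 (ENSMUSG00000015950, chr5:134248907-134258479 of GRCm39 on the minus strand), the organizer subunit that brings the cytosolic complex to the membrane, fell with MSNP. It was at 607, 618 and 577 CPM in the controls and at 395, 393 and 402 CPM with MSNP, so that the groups did not overlap. It was at 555, 554 and 573 CPM with SNP100, at 547, 577 and 565 CPM with SNP50 and at 546, 558 and 561 CPM with HMSNP. The log2 fold change of MSNP against Control was -0.60 ± 0.05 (edgeR adjusted p = 4.8e-07). It remained called in all 15 fits that left out 1 library each, with a range of -0.62 to -0.57, and with only the 6 libraries (adjusted p = 0.0032). MSNP was also lower than SNP100 by a log2 difference of -0.50 ± 0.05 (adjusted p = 4.9e-06), and HMSNP was higher than MSNP by 0.48 ± 0.05 (adjusted p = 5.1e-06). The other 3 particles gave -0.10 ± 0.05 (SNP100, adjusted p = 0.53), -0.09 ± 0.05 (SNP50, adjusted p = 0.52) and -0.11 ± 0.05 (HMSNP, adjusted p = 0.2), although each of their libraries lay below the lowest control. Ncf1 was called lower without Control replicate 3 in SNP50 (-0.13, adjusted p = 0.038) and in HMSNP (-0.14, adjusted p = 0.036), and not in SNP100 (-0.13, adjusted p = 0.075). Ncf1 overlaps Gtf2ird2 on the opposite strand, which was at 15.2 ± 0.473 CPM (SD, n = 3) in Control and did not pass the test with MSNP (log2 fold change 0.14 ± 0.07, adjusted p = 0.15).

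Ncf4 (ENSMUSG00000071715, chr15:78128982-78146784 of GRCm39 on the plus strand), the subunit that binds a phagosomal lipid, had the narrowest spread of group means among the oxidase genes, with the highest mean 1.07 times the lowest. It was at 157, 153 and 189 CPM in Control, at 157, 158 and 162 CPM with SNP100 and at 178, 165 and 168 CPM with SNP50. MSNP gave 161, 164 and 169 CPM and HMSNP gave 165, 168 and 169.9 CPM. The log2 fold changes lay between -0.07 ± 0.07 (SNP100, adjusted p = 0.77) and 0.04 ± 0.07 (SNP50, adjusted p = 0.91), and neighbouring groups in the order of means overlapped. Ncf4 was called in SNP50 without Control replicate 3 (0.13, adjusted p = 0.04).

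The GTPase genes that partner the oxidase did not pass the test with MSNP, with log2 fold changes of -0.06 ± 0.09 for Rac2, the form found in blood cells (adjusted p = 0.72), and -0.13 ± 0.09 for Rac1 (adjusted p = 0.32). Cybc1, which encodes a chaperone of the membrane core, gave -0.20 ± 0.07 (adjusted p = 0.061). Of the 9 other NADPH oxidase genes, Nox1, Noxo1 and Duoxa1 reached the filter, none was called in any comparison by edgeR or DESeq2, and none had an unadjusted p under 0.05 against Control. Nox4, the constitutively active form, had 0 counts in every library.

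Hvcn1 (ENSMUSG00000064267, chr5:122344867-122382736 of GRCm39 on the plus strand) rose with 3 of the 4 particles and changed by the largest fold of the 9 genes. It was at 2.71, 2.83 and 2.84 CPM in Control (89 to 109 counts) and at 29.6, 28.5 and 26.3 CPM with MSNP (888 to 1057 counts). It was at 6.53, 6.07 and 6.15 CPM with SNP100 and at 5.50, 7.20 and 5.25 CPM with SNP50, and at 2.76, 3.34 and 3.16 CPM with HMSNP. The order of means was Control, HMSNP, SNP50, SNP100 and MSNP, in which Control overlapped HMSNP, SNP50 overlapped SNP100, and the 3 tiers did not overlap each other. The log2 fold change was 3.33 ± 0.12 for MSNP (edgeR adjusted p = 5.2e-11), which is 10.1-fold. SNP100 gave 1.16 ± 0.12 (adjusted p = 0.00046), SNP50 1.10 ± 0.12 (adjusted p = 0.00048) and HMSNP 0.15 ± 0.13 (adjusted p = 0.49). MSNP exceeded SNP100 by 2.17 ± 0.11 (adjusted p = 2.9e-09), and HMSNP was lower than MSNP by a log2 difference of -3.18 ± 0.12 (adjusted p = 7.4e-11), although both were given at 200 µg/mL. All calls for Hvcn1 held in each of the 15 fits that left out a library. When fitted on its own 6 libraries, the MSNP call held (adjusted p = 2.1e-05), whereas SNP100 (1.16, adjusted p = 0.14) and SNP50 (1.10, adjusted p = 0.31) were no longer called. Over all genes, 0 were called in that SNP100 fit and 1 in that SNP50 fit. Hvcn1 overlaps Tctn1 on the opposite strand. Tctn1 was at 10.6 ± 1.78 CPM (SD, n = 3) in Control and 9.85 ± 0.73 CPM with MSNP, a log2 fold change of -0.11 ± 0.12 (adjusted p = 0.58), so it did not pass the test where Hvcn1 did.

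Nos2 (ENSMUSG00000020826, chr11:78811613-78851080 of GRCm39 on the plus strand) moved in opposite directions with the mesoporous and hollow mesoporous particles. It was at 1.34, 1.04 and 0.989 CPM in Control (36 to 44 counts), at 2.74, 2.67 and 2.82 CPM with MSNP (83 to 99 counts) and at 0.176, 0.451 and 0.206 CPM with HMSNP (6 to 17 counts). It was at 1.20, 1.22 and 2.22 CPM with SNP100 and at 1.05, 1.13 and 0.832 CPM with SNP50. All MSNP libraries lay above, and all HMSNP libraries below, the libraries of every other group. The log2 fold change was 1.29 ± 0.26 in MSNP (edgeR adjusted p = 0.0017), which is 2.45-fold, and -2.00 ± 0.34 in HMSNP (adjusted p = 0.0026), where Control was 3.99-fold higher. The direct difference of HMSNP from MSNP was -3.29 ± 0.31 (adjusted p = 1.3e-06). These 3 calls held in all 15 fits that left out a library, but the fall in HMSNP was not called when only its 6 libraries were fitted (-2.00, adjusted p = 0.098). That last fit called 77 of all genes. SNP100 gave 0.46 ± 0.27 (adjusted p = 0.58), which dropped to 0.11 without SNP100 replicate 3, and SNP50 gave -0.15 ± 0.28 (adjusted p = 0.9). MSNP exceeded SNP100 by 0.83 ± 0.25 (adjusted p = 0.031), a call made in 10 of the 15 fits. Nos2 was a low-count gene in all groups, which limits the precision of these folds. Nos2 also overlaps Gm71838 on the opposite strand, for which no counts were available.

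The 250 bases upstream of the start of the canonical transcript are shown for Hvcn1 and Nos2, since these were the genes with the widest range across groups, 10.1-fold and 9.88-fold between the highest and lowest mean. Both are read on the plus strand of GRCm39, at chr5:122347628-122347877 for Hvcn1 and chr11:78811363-78811612 for Nos2, and capitals mark a match to the NF-kB consensus, 13 bases before the start in Hvcn1 and 46 bases before it in Nos2.
Hvcn1: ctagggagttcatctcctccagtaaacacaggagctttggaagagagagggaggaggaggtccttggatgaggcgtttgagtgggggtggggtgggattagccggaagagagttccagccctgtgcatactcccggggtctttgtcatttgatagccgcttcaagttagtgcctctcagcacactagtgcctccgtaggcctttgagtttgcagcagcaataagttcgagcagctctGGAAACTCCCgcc
Nos2: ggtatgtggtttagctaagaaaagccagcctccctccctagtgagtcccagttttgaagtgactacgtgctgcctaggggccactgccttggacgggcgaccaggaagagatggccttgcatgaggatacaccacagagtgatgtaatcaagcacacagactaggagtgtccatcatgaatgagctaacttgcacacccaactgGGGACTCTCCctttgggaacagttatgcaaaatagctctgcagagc
NF-kB is a transcription factor known to act on Nos2. Of the 21770 promoters of this length, 4.23% hold a match on either strand, and among the 9 genes Ncf4 holds another, 33 bases before its start, where it overlaps a PU.1 core (GAGGAA). The PU.1 core was found in 22.9% of all promoters and, among the 9 genes, in Ncf4, Sod2 and Cat. The STAT site known as GAS (TTCNNNGAA) was found in 7.7% of all promoters and in Ncf1, Ncf4 and Sod2, and the AP-1 site (TGANTCA) in 6.17% and in Cybb. Within these 250 bases, an E-box (CACGTG, 6.26% of promoters) and a TATA box (TATAAA, 11.9%) were found in none of the 9. Bases from the annotated start onward were not searched, and the start used in these cells was not mapped. A motif missing here may therefore lie just outside the window, and the distances given hold for the annotated start only. A match describes the letters only, and no binding was measured.

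**Figure D2:**
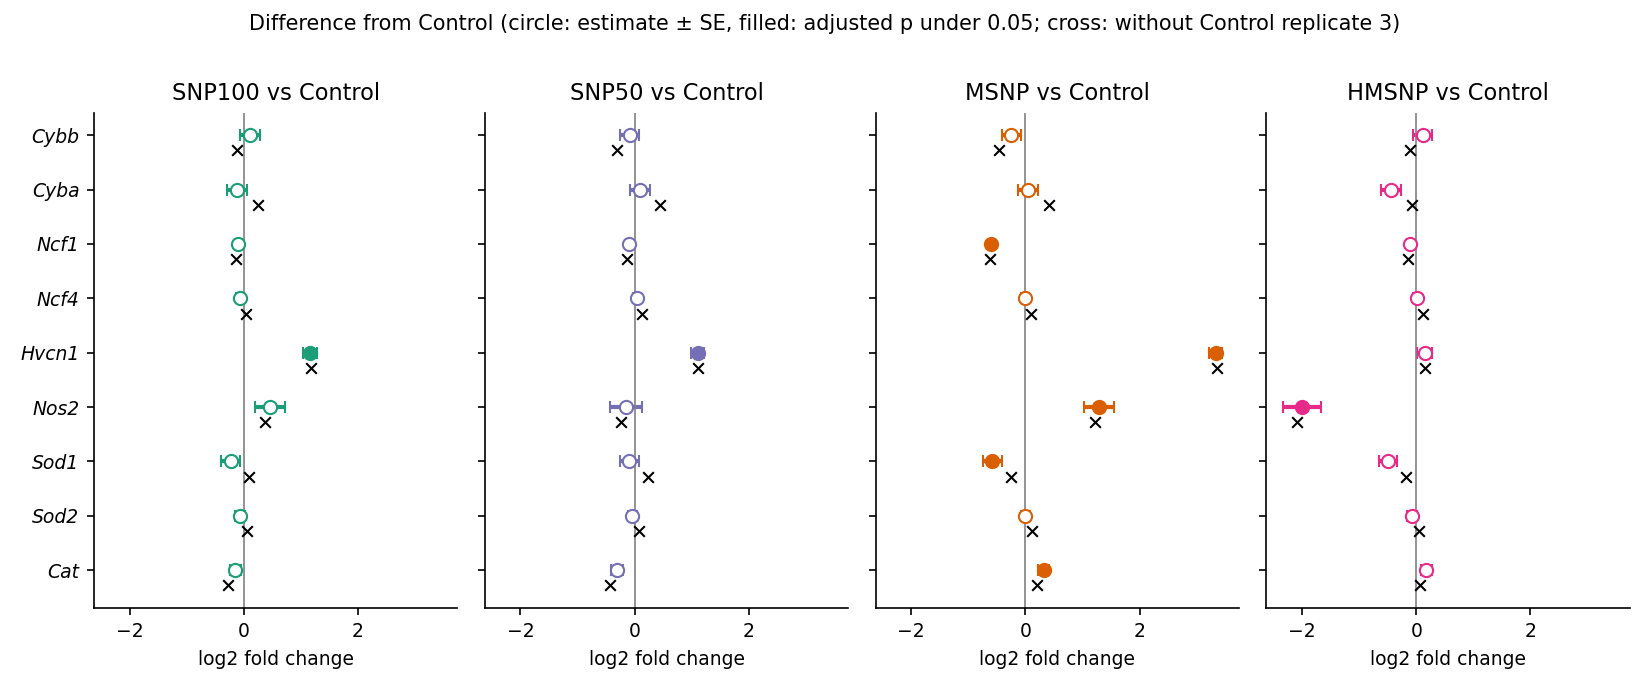
Log2 fold change of each gene against Control in the 4 treated groups, with circles for the edgeR estimate and its SE, filled where the adjusted p was under 0.05, and crosses for the estimate without Control replicate 3. Hvcn1 stands at 3.33 in MSNP and Nos2 at -2.00 in HMSNP with crosses beside the circles, whereas the crosses for Cyba, Cybb and Sod1 are displaced in every panel.

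The superoxide and peroxide removing genes Sod1, Sod2 and Cat moved less than Hvcn1 and Nos2. Their highest group mean was at most 1.55 times the lowest, near the 1.51 of Ncf1. Sod1 (ENSMUSG00000022982, chr16:90017408-90027657 of GRCm39 on the plus strand) was at 310.5, 305 and 541 CPM in Control, at 264, 251 and 259 CPM with MSNP and at 268, 278 and 273 CPM with HMSNP. It was at 317, 322 and 347 CPM with SNP100 and at 403, 338 and 343 CPM with SNP50. Every MSNP and HMSNP library was below every library of the other 3 groups. The log2 fold change in MSNP was -0.58 ± 0.16 (edgeR adjusted p = 0.018), and -0.25 (adjusted p = 0.0043) without Control replicate 3. That call was lost without MSNP replicate 2 and with only the 6 libraries (adjusted p = 0.16). In HMSNP the value was -0.50 ± 0.16 (adjusted p = 0.093) and -0.17 (adjusted p = 0.093) without Control replicate 3, and it was called without Control replicate 1 (-0.60, adjusted p = 0.042) or 2 (-0.62, adjusted p = 0.012). Sod1 in SNP50 turned from -0.09 ± 0.16 (adjusted p = 0.9) to 0.23 (adjusted p = 0.015) when that control was left out. Sod1 overlaps Scaf4 on the opposite strand, which rose with MSNP (0.44 ± 0.13, adjusted p = 0.027).

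Sod2 (ENSMUSG00000006818, chr17:13224095-13259591 of GRCm39 on the plus strand), which is often induced by inflammatory signals, had the flattest profile. Its libraries were at 116, 119.8 and 147 CPM in Control, 122, 121 and 123 CPM in SNP100, and 131, 123 and 118 CPM in SNP50. MSNP gave 129, 124 and 129 CPM and HMSNP 124, 125 and 116 CPM. The highest group mean was 1.05 times the lowest, and the log2 fold changes lay between -0.07 ± 0.08 (HMSNP, adjusted p = 0.62) and -0.0026 ± 0.08 (MSNP, adjusted p = 0.99).

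Cat (ENSMUSG00000027187, chr2:103284194-103316185 of GRCm39 on the minus strand), which encodes catalase, was at 148, 168 and 120.4 CPM in Control and at 189.5, 186 and 169 CPM with MSNP. It was at 132, 133 and 128 CPM with SNP100, at 111, 123 and 118 CPM with SNP50 and at 153, 176 and 164 CPM with HMSNP. The lowest MSNP library was only just above the highest control, and the log2 fold change of 0.32 ± 0.10 (edgeR adjusted p = 0.031) was called in 9 of the 15 fits that left out a library and not with only the 6 libraries (adjusted p = 0.19). The difference of MSNP from SNP100, 0.47 ± 0.10 (adjusted p = 0.0035), was called in all 15. Without Control replicate 3 Cat was lower than Control in SNP100 (-0.27, adjusted p = 0.029) and SNP50 (-0.43, adjusted p = 0.00041), where the values with all controls were -0.15 ± 0.10 and -0.31 ± 0.10 (adjusted p = 0.64 and 0.19). With HMSNP the value of 0.18 ± 0.10 (adjusted p = 0.29) was called without Control replicate 2 (0.31, adjusted p = 0.026).

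Treated groups were also set against each other, which does not use the control levels. Between MSNP and SNP100, 4 of the 9 genes were called, Hvcn1, Nos2 and Cat higher with MSNP and Ncf1 lower, where 17.9% of all genes were called (10.4% higher and 7.53% lower). Between HMSNP and MSNP, at the same dose, 3 were called, Ncf1 higher with HMSNP and Hvcn1 and Nos2 lower, where 20.2% of all genes were called (9.22% higher and 11% lower). Leaving Control replicate 3 out of the shared fit raised these to 7 and 5 genes, against 33.1% and 33.9% of all genes. Between SNP50 and SNP100, which differ in size and dose, edgeR called 0 of the 9 genes and 0% of all genes, with 1 of the 9 and 867 of all genes at an unadjusted p under 0.05, and DESeq2 called 0 of the 9 and 1 gene in all. Without Control replicate 3, 0.433% of all genes and 0 of the 9 were called. The log2 difference of SNP50 from SNP100 was -0.06 ± 0.11 for Hvcn1 (adjusted p = 0.93) and -0.61 ± 0.27 for Nos2 (adjusted p = 0.9), where every SNP50 library was below every SNP100 library. A p that misses the threshold does not show that both particles acted alike.

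**Figure D3:**
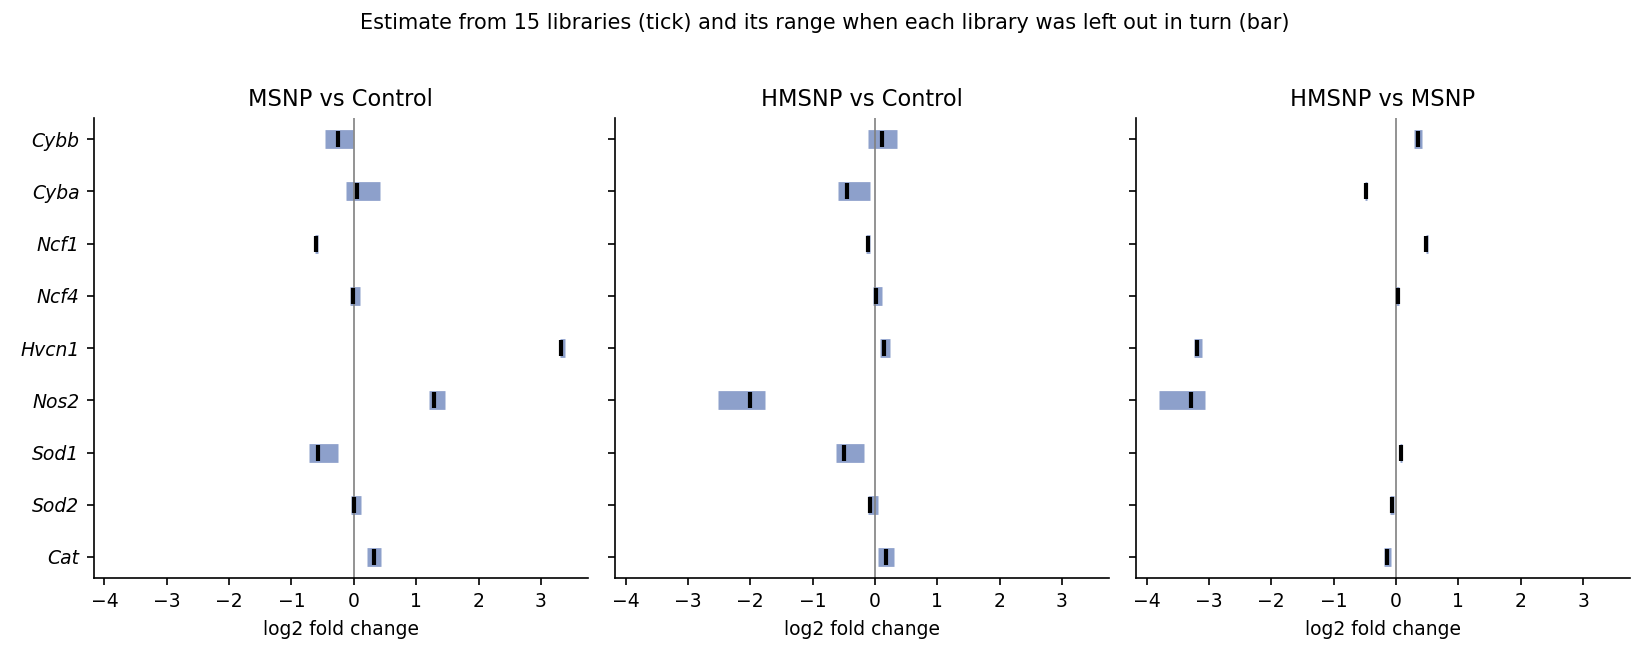
Log2 fold change of each gene (tick) and its range when each of the 15 libraries was left out in turn (bar), for MSNP and HMSNP against Control and for HMSNP against MSNP. The bars of Cybb, Cyba and Sod1 are wide in both comparisons with Control and narrow between the treated groups, while Nos2 with HMSNP ranges from -2.52 to -1.77.

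Genes that signal to the oxidase were read from a list of 14, of which 13 were tested and Prkcb had 0 counts in every library. With MSNP 4 rose (Vav1, Vav2, Vav3 and Syk) and 2 fell (Pak1 and Pik3cg), with a median log2 fold change of 0.05 against -0.05 over all genes. The median turned to -0.07 without Control replicate 3, with 5 genes called higher and 5 lower. Vav3, an exchange factor that activates Rac, was at 26.5, 31.2 and 15.8 CPM in Control and at 72.2, 70.0 and 66.8 CPM with MSNP, a log2 fold change of 1.51 ± 0.17 (adjusted p = 7.7e-06). Syk, the kinase that acts downstream of phagocytic receptors, was at 128, 148 and 88.6 CPM in Control and at 245, 249 and 236 CPM with MSNP (1.001 ± 0.13, adjusted p = 2.8e-05). Both were lower with HMSNP than with MSNP, by -0.95 ± 0.17 for Vav3 (adjusted p = 0.0006) and -0.72 ± 0.13 for Syk (adjusted p = 0.00061). With HMSNP 2 genes of the list rose against Control, Vav1 (0.19 ± 0.05, adjusted p = 0.043) and Pik3cd (0.43 ± 0.12, adjusted p = 0.049), while edgeR called 0 in SNP100 and SNP50, with 2 and 3 at an unadjusted p under 0.05 and 1 and 2 called by DESeq2. When Control replicate 3 was left out, there were 3 higher in HMSNP, 1 lower in SNP100, and 1 higher and 2 lower in SNP50. The lists of signalling, nitric oxide and peroxide genes were written with earlier results of these data known, so their counts are a description.

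The list of nitric oxide and arginine genes held 15, of which 14 were tested and Arg1 was under the filter with 3 counts in all. With MSNP 4 rose (Nos1, Nos2, Gch1 and Asl) and 2 fell (Ass1 and Pts), with a median log2 fold change of 0.12. The median was 0.35 without Control replicate 3, with 6 called higher and 2 lower. Gch1, the first enzyme in the synthesis of the cofactor that nitric oxide synthases need, was at 11.2, 12.0 and 13.9 CPM in Control and at 28.1, 25.9 and 24.3 CPM with MSNP, and rose by 1.07 ± 0.10 (adjusted p = 9e-07). Nos1, the form known from neurons, rose by 1.28 ± 0.21 (adjusted p = 0.00034) from 63 to 103 counts in the controls to 165 to 196 counts with MSNP. Ass1, which helps rebuild arginine from citrulline, was at 14.9, 14.8 and 16.2 CPM in Control and at 9.45, 8.56 and 8.21 CPM with MSNP (-0.81 ± 0.09, adjusted p = 5.8e-06). Ass1 also fell in SNP100 (-0.44 ± 0.09, adjusted p = 0.027) and SNP50 (-0.48 ± 0.09, adjusted p = 0.014), where no other gene of the list was called with all controls. Both calls were lost with only the 6 libraries (adjusted p = 0.55 and 0.49), where 0 and 1 of all genes were called. Ass1 stayed called in both without Control replicate 3, where the list had 2 higher and 1 lower in SNP100 and 5 higher and 2 lower in SNP50. In HMSNP edgeR called 0 higher and 1, Nos2, lower, with a median of -0.28 against -0.04 over all genes. There 4 of the list had an unadjusted p under 0.05 by edgeR, and DESeq2 called 3 (Nos2, Pts and Ass1). Ass1 was at 12.1, 13.9 and 11.5 CPM with HMSNP, below every control. Without Control replicate 3, 1 gene of the list was higher and 2 lower in HMSNP. From MSNP to HMSNP 6 genes of the list were lower (Nos1, Nos2, Gch1, Arg2, Slc7a1 and Asl) and 1 was higher (Ass1). Gch1 was lower by -1.23 ± 0.10 (adjusted p = 2.4e-07) in that comparison.

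The list of superoxide and peroxide removing genes held 15, of which 14 were tested and Sod3, the secreted form, had 0 counts in every library. With MSNP 1 rose (Cat) and 4 fell (Sod1, Gpx1, Prdx2 and Prdx6), with a median log2 fold change of -0.37 that became -0.03 without Control replicate 3. Without that library 2 were called higher and 4 lower. Gpx1, the main cytosolic glutathione peroxidase, was at 612, 572 and 1065 CPM in Control and at 449, 435 and 444 CPM with MSNP, below every control. Its log2 fold change was -0.76 ± 0.16 (adjusted p = 0.0029), and -0.41 (adjusted p = 8.1e-07) without Control replicate 3. Prdx2, a peroxiredoxin that reduces hydrogen peroxide, gave -0.61 ± 0.16 (adjusted p = 0.01) and -0.28 (adjusted p = 0.00034) without that library. In HMSNP edgeR called 0, although 13 of the 14 had negative values and 10 an unadjusted p under 0.05, and DESeq2 called Sod1, Ccs and Prdx2, with a median of -0.41 that became -0.08 without Control replicate 3. Leaving out that library gave 0 higher and 1 lower in HMSNP. In SNP100 and SNP50 edgeR called 0 with all controls, with medians of -0.21 and -0.11. Without Control replicate 3, 1 was higher and 1 lower in SNP100 (median 0.06). In SNP50 7 were then higher and 1 lower (median 0.15). Ccs, the chaperone that loads copper into Sod1, was at 18.5, 18.5 and 29.2 CPM in Control and did not pass the test with MSNP (-0.27 ± 0.14, adjusted p = 0.19).

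**Figure D4:**
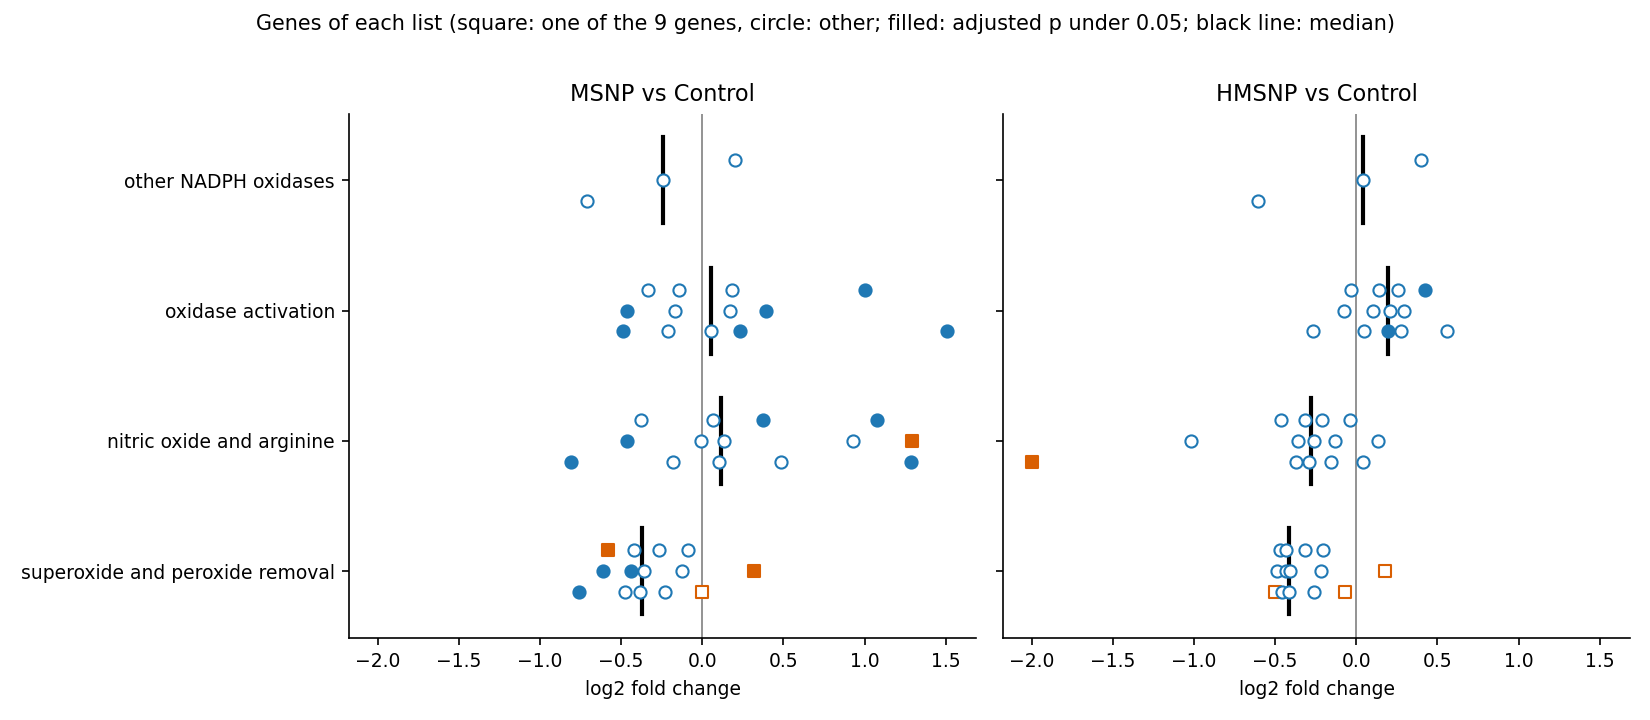
Log2 fold change against Control of each tested gene in 4 lists, with MSNP on the left and HMSNP on the right, squares for the 9 genes, circles for other list members, filled symbols for an adjusted p under 0.05 and black lines for list medians. Nos2 is at 1.29 on the left and at -2.00 on the right, and the median of the superoxide and peroxide removing genes lies left of 0 in both panels, at -0.37 and -0.41.

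The genes whose levels followed those of each of the 9 genes most closely were found among 9668 genes, by the root mean square of the difference of log2 CPM over the 15 libraries, each gene centred on its mean in the controls. For Hvcn1 these were Cd28 at 0.26 and Aph1c at 0.30, against 1.64 for Hvcn1 itself about its control mean. Cd28, a costimulatory receptor best known from T cells, gave log2 fold changes of 3.54 with MSNP, 0.95 with SNP100, 0.79 with SNP50 and -0.06 with HMSNP. For Nos2 they were Hal, the enzyme that starts histidine breakdown, at 0.45 and Cth, an enzyme of cysteine synthesis, at 0.61, against 1.08 for Nos2 itself. Hal gave 1.74 in MSNP and -1.50 in HMSNP. For Ncf1 they were Dram1 and Slc25a45, for Cyba S100a1 and Bax, and for Sod1 Eef1b2 and Rpl17, a translation factor and a ribosomal protein gene. Without Control replicate 3 the nearest gene was the same for Cyba, Ncf1 and Nos2 and another for the other 6. For Hvcn1 and Sod1 the pair of genes named stayed the same, in the other order.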

How the data were processed

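Poly(A) RNA of RAW 264.7 cells was sequenced by the authors from directional libraries as pairs of reads. Per the labels, reads were trimmed with cutadapt 1.16, mapped to GRCm39 with STAR 2.7.9a and counted with featureCounts 1.6.3. The deposited table holds raw counts per gene and library, without normalization. The annotation release, the use of strand and whether reads or pairs were counted are not given in the sources used here, so reads of overlapping genes on opposite strands may have been exchanged. Symbols, positions and promoters were taken from GENCODE vM39 on GRCm39. Groups came from the labels, and doses and diameters from the study's methods.

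Of 57186 genes, 30400 had 0 counts in every library, and the 19839 with at least 10 counts in sum were tested in R 4.3.3 with edgeR 4.0.16 (TMM, all 15 libraries in one model, quasi-likelihood test, Benjamini-Hochberg adjustment over all tested genes, threshold 0.05). Levels are CPM with TMM scaling. Each SE was derived from the estimate and the F value. The study used DESeq2, which was run here (1.42.0) as an alternative. Other alternatives were RLE normalization, filterByExpr, no filter, only the 6 libraries compared, the replicate block, leaving out each library, and an offset for transcript length (lowess, span 0.3), alone and without Control replicate 3. The steps were tested on simulated data. The 9 genes, the lists and the rule for named genes were chosen with earlier results of these data known. Genes of a list beyond the 9 were named by the rule of an absolute log2 fold change of at least 0.58 with a call in at least 1 of the 4 comparisons with Control, at most 4 per list by p, besides fixed partners (among them Rac1, Rac2, Cybc1, Ccs and Gch1). Other list genes are named only to say which made up a count, or were added after their values were seen. Levels were not compared between genes. Results of 2 of the lists are not reported here.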

Additional observations from a re-analysis of the deposited data

Results flagged for a closer look

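The difference of Nos2 between HMSNP and MSNP stood out because the effects of these particles against the same 3 controls were opposite and differed when tested directly. Nos2 was higher than Control in 3 of 3 MSNP libraries (log2 fold change 1.29) and lower in 3 of 3 HMSNP libraries (-2.00), and the log2 difference of HMSNP from MSNP was -3.29 (edgeR's quasi-likelihood test, adjusted p = 1.3e-06). Both particles were given at 200 µg/mL. When only the 6 libraries compared were fitted, the fall in HMSNP against Control was not called (edgeR adjusted p = 0.098). The direct difference from MSNP was still called in such a fit (edgeR adjusted p = 1.1e-06). Nos2 had 6 to 17 counts in the HMSNP libraries, and the particle cannot be told apart from the library number prefix that each group carries.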

How the results depend on the processing

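Of 1449 values of the 9 genes under the alternatives, 1377 kept their call and direction, 48 became called, 19 lost their call and 5 turned direction with a call. Signs were not compared where neither value was called. Without Control replicate 3, Cyba in SNP100 turned to 0.24 (0.17 with the length offset as well), and Sod1 in SNP50 to 0.23 (0.29 with the offset). In SNP50 Sod2 turned to 0.18 with both changes, and Gpx1 to 0.31 without that library and 0.12 with both. Leaving out each library in turn gave -0.28 to 0.24 for Cyba in SNP100, -0.23 to 0.23 for Sod1 and -0.18 to 0.31 for Gpx1 in SNP50, the lowest without Control replicate 2. The cause was not tested. The number of the 9 genes called against Control, 1 for SNP100, 1 for SNP50, 5 for MSNP and 1 for HMSNP, became 4, 7, 6 and 2 with the length offset and no Control replicate 3, and 0, 0, 3 and 0 with only the 6 libraries. Over all genes, the main fit called 181, 280, 4527 and 1024. These became 1160, 3498, 6081 and 2011 in the first of those settings, and 0, 1, 2257 and 77 in the second. In HMSNP 2 of the 9 genes were called with DESeq2 and 2 with the length offset, beside 1945 and 1471 of all genes. Leaving out each library gave 1 to 3 genes with SNP100, 1 to 7 with SNP50, 3 to 7 with MSNP and 1 to 4 with HMSNP. The calls over all genes then ranged from 57 to 1012, 87 to 3713, 3423 to 6522 and 493 to 4940. The fewest of the 9 genes in MSNP came without MSNP replicate 2 (3), and the most in HMSNP without Control replicate 2 (4). Between MSNP and SNP100 the 4 genes became 8 with the length offset and no Control replicate 3, 7 with only the 6 libraries, and 3 to 7 when each library was left out. The 3549 calls over all genes became 6627, 7142 and 2629 to 6483. Between HMSNP and MSNP the 3 genes became 5, 6 and 3 to 5, and the 4010 calls over all genes became 6901, 7142 and 3162 to 6644. Deviations of same-numbered libraries from their group means had a median correlation of 0.0156 (-0.517 to 0.574) over 30 pairs, of which 10 were over 0.1. The median was -0.015 over 60 pairs of unlike number. With 3 libraries per group, these values cannot tell whether some same-numbered libraries were handled together. The replicate block changed no call of the 9 genes, with 5 called in MSNP and Hvcn1 at 3.33 there. Nos2, at 6 to 99 counts per library, is the gene most limited by depth.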
